A study of Mus musculus with 2 samples.

Results

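The collagen genes were followed in epithelial cells of the mouse submandibular gland, a major salivary gland, on 1 microarray for young and 1 for aged animals. They were taken as all probes for transcripts whose gene name in the scanner files reads Col, a number, the letter a and a number, which gave 92 probes and 44 of the 36866 gene names on the array. The young array held RNA from female C57BL/6 mice (C57BL/6N in the study's methods) aged 9 weeks and the aged array RNA from female mice of the same strain aged 24 months, and no treatment or altered allele was named for either. The young mice came from a commercial breeder and the aged mice from the institute's own colony, so that origin and age cannot be told apart. Both samples were cells held on magnetic beads against EpCAM, a surface protein of epithelial cells, after the gland had been digested with collagenase, hyaluronidase and DNase. Such a fraction can still hold cells of other types. Each age was represented by 1 sample, so no difference below has a replicate check or a p-value.

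Collagens are the main structural proteins of the extracellular matrix. Their chains wind into a helix, for which glycine must recur at a fixed spacing along the chain, and the helices are then built into different assemblies. Fibrillar collagens (types I, II, III, V, XI, XXIV and XXVII) form the fibres of connective tissue and are made mostly by fibroblasts. Type IV collagen forms the sheet-like net of basement membranes, on which epithelia rest, and types XV and XVIII lie within or beside it. The remaining classes are the beaded filaments of type VI, the FACIT collagens that sit on the surface of fibrils, transmembrane collagens such as type XVII of hemidesmosomes, and a mixed class of network-forming and anchoring collagens, which includes type VII of the anchoring fibrils under stratified epithelia.

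The spacing of glycine can be read in the probes themselves. Glycine is coded by GGN, where N is any base, and a run of at least 4 such codons, each beginning 9 bases after the one before it, occurred in 7 of the 92 collagen probes (7.61%) and in 46 of all 56605 probes (0.0813%). A probe is an oligonucleotide of 60 bases in the sense of the transcript. The following 3 are shown because they carry the repeat that all collagens share, with the GGN codons of the run in capitals. Their positions in the files are on the mm9 build, at chr15:55347733-55347792 (plus strand) for Col14a1, within chr9:20590066-20590795 (minus strand) for Col5a3 and within chr1:92689602-92690594 (minus strand) for Col6a3, the latter 2 spanning more than the length of the probe.
Col14a1: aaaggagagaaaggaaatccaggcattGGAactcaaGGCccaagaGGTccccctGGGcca
Col5a3: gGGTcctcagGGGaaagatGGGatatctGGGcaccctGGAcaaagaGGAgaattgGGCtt
Col6a3: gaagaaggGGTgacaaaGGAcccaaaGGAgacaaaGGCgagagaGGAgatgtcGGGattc
The Col14a1 probe is the only one of that gene and was well above background on the young array. The Col5a3 and Col6a3 probes shown were well above background on neither array, and the values of these genes given below come from other, brighter probes.

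A gene was represented by its brightest probe. Levels are log2 signals relative to the 75th percentile of the array, which was 256 (young) and 198 (aged), and differences are aged minus young, so that -1 is 2-fold lower in aged cells. The scanner software marks each spot that is well above background. Of the 44 collagen genes, 22 were well above background on both arrays, 7 on the young array only (Col2a1, Col4a4, Col5a3, Col6a2, Col9a3, Col14a1 and Col26a1), none on the aged array only and 15 on neither. Of the 21284 genes measured on at least 1 array, 87.8% were well above background on both, 9.89% on the young array only and 2.28% on the aged array only. For a gene measured on 1 array only, only a limit of the fold is given, worded "at least". It sets the dim array to its weakest signal well above background. This limit is nominal, because it leaves out the error of the dim spot and depends on the background correction. Where the dim signal itself exceeded the weakest signal well above background of its array, it was taken as it stood. The limit then equals the difference, carries its error and is not worded in this way. Each difference carries an error that was propagated from the software's error for the spot, and this covers the measurement on the array and not the spread between mice. The levels of single genes depend on their probes and are not ranked against each other.

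Of the 29 collagen genes measured on at least 1 array, 8 were lower by 2-fold or more in aged cells, as a measured fold or a limit, and none was at least 2-fold higher. The same count over all genes was 1094 of 21284 (5.14%) lower and 538 (2.53%) higher. Among genes measured on both arrays, 7 of the 22 collagen genes were at least 2-fold lower, beside 568 of 18693 of all genes (3.04%), and none was at least 2-fold higher, beside 283 genes (1.51%). With the normexp background correction, which adds an offset of 50 to each signal, the count over the 29 genes was 2 in place of 8. The count over all genes fell as well, to 297 of 21284 lower (1.4%), beside 6.9% of the collagen genes. The 8 genes were Col1a1, Col1a2, Col3a1, Col5a3 and Col11a1 of the fibrillar class, Col4a1 of the basement membrane class, and Col6a1 and Col6a3 of the beaded filaments. The median difference was -1.59 for the 6 fibrillar genes measured on both arrays, -0.55 for the 5 basement membrane genes, -0.05 for the 11 genes of all other classes and 0.09 for all genes. The 22 collagen genes measured on both arrays had a median of -0.29. With normexp, these medians were -0.81 for the fibrillar genes, -0.018 for the basement membrane genes, -0.024 for the 22 collagen genes and 0.10 for all genes. In a mixture of cells such as this, fewer cells of a type and less RNA per cell cannot be told apart.

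**Figure D1:**
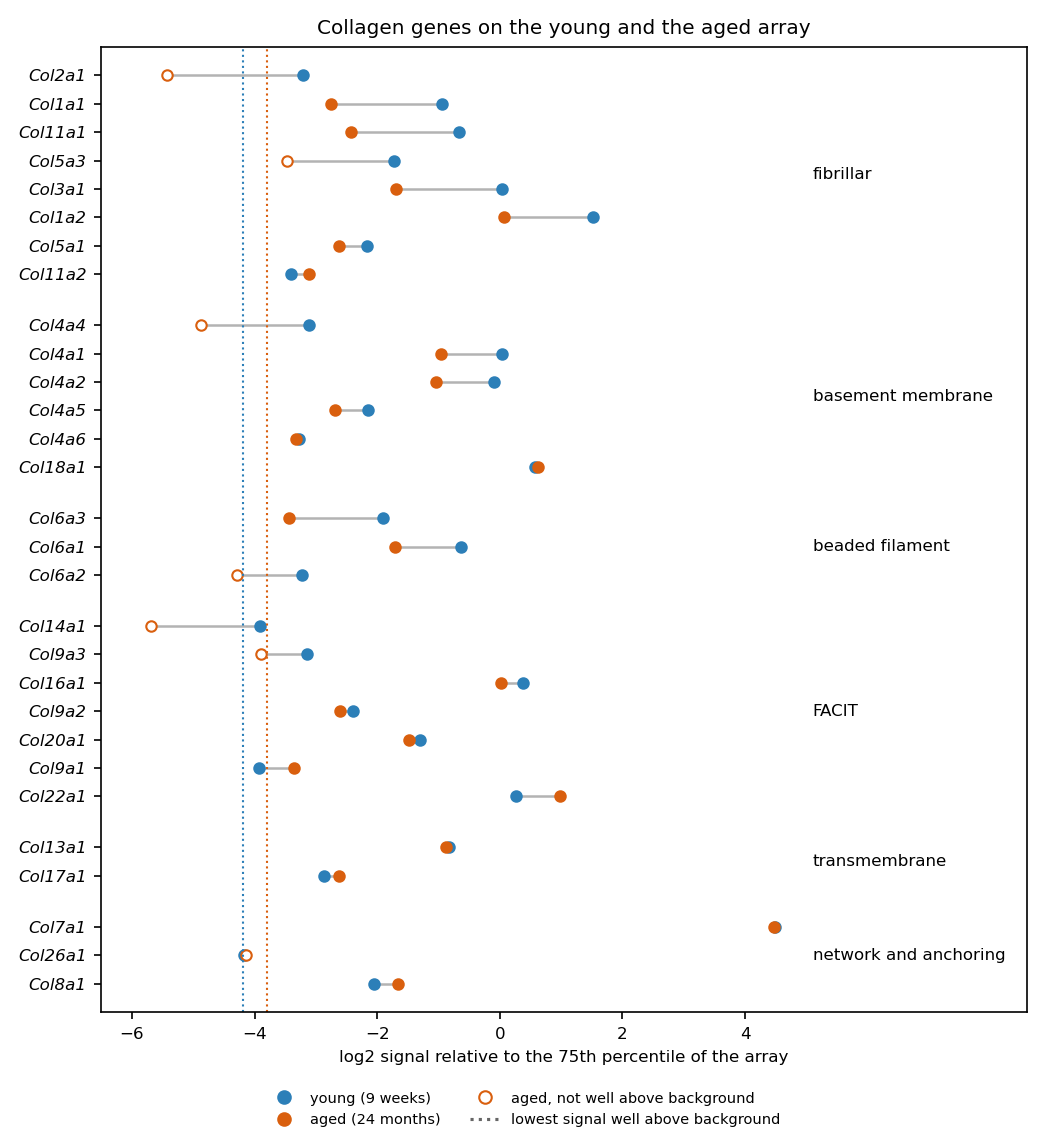
Level of the 29 collagen genes measured on at least 1 array, as log2 signal relative to the 75th percentile of the array, on the young (blue) and aged (orange) array. Open symbols are not well above background and dotted lines mark the lowest signal well above background (-4.19 young, -3.79 aged). Among genes with filled symbols on both arrays, the gaps of over 1 lie in the fibrillar, basement membrane and beaded filament classes, and the symbols of Col7a1 and Col18a1 nearly coincide.

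Fibrillar collagens had the lowest median of the classes. Col1a1 and Col1a2 encode the chains of type I collagen, the most abundant collagen of connective tissue. The Col1a1 signal was 134 in young and 29.5 in aged cells, a level of -0.94 against -2.75. Col1a1 was therefore 3.51-fold lower in aged cells (-1.81 ± 0.27, error of the software's model). The Col1a2 signal was 734 in young and 208 in aged cells, a level of 1.52 against 0.07, which is 2.72-fold lower (-1.44 ± 0.21). Both chains of type I collagen were thus lower on the aged array by differences several times their errors. Col3a1, the single chain of type III collagen, which is found together with type I in soft tissue, had a signal of 262 in young and 61.0 in aged cells. Its level went from 0.03 to -1.70, a difference of -1.73 ± 0.22.

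Type V and type XI collagens are minor fibrillar collagens that start and limit the growth of the larger fibrils. Col11a1 had a signal of 161 in young and 36.9 in aged cells, a level of -0.67 against -2.42 and a difference of -1.76 ± 0.25. Col5a3 had a signal of 77.7 in young and 17.8 in aged cells, the latter not well above background. With the dim signal as it stood, Col5a3 was 3.37-fold lower (-1.75 ± 0.37). Col5a1 did not share the size of these differences, with a level of -2.17 in young and -2.63 in aged cells (-0.46 ± 0.28). Col11a2 had a level of -3.40 in young and -3.10 in aged cells, and its difference of 0.30 ± 0.38 was smaller than its error. Col2a1, the chain of cartilage collagen, was dim at -3.21 on the young array and not well above background on the aged array, which gave a limit of at least 1.497-fold lower. Col5a2, Col24a1 and Col27a1 were well above background on neither array.

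The array carries 4 probes for Col1a1, and 3 of these measured the gene on both arrays. They gave differences of -1.81, -1.56 and -2.004, all at least 2-fold lower. The first probe, A_52_P525107 at chr11:94813075-94813134 on mm9, and the second, A_55_P2118520 at chr11:94813115-94813174, overlap and lie on the plus strand, while the third lies further along at chr11:94814188-94814247. The first 2 probes are each printed in 10 spots. Of the first, 6 spots remained after outlier spots had been left out, with signals of 123 to 139 (median 135) in young and 25.8 to 32.5 (median 29.6) in aged cells. Of the second, 9 spots remained, with signals of 93.6 to 108 in young and 23.9 to 32.7 in aged cells. The spots of the arrays did not overlap for either probe, and the difference had an SD of 0.17 over the 6 spots and of 0.12 over the 9 spots. Repeated spots share their RNA and their labelling, and they show the precision of the array only.

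**Figure D2:**
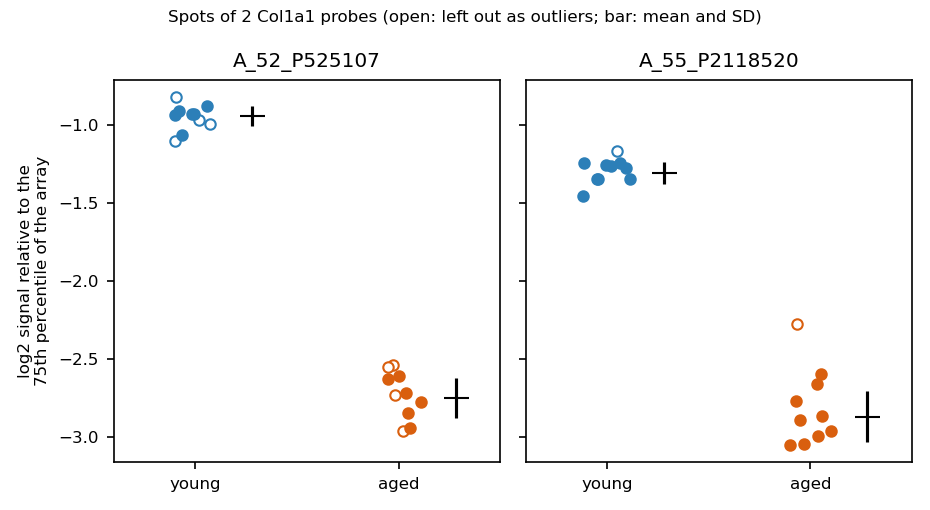
Log2 signal of every spot of the 2 Col1a1 probes that are printed 10 times, relative to the 75th percentile of the array, on the young (blue) and aged (orange) array. Open symbols were left out as outliers, bars give the mean and SD of the others, and all spots of the aged array lie below all spots of the young array.

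Col1a2 and Col3a1 were at least 2-fold lower under every alternative that gave single genes a value, and their promoters are shown for this reason, together with those of the basement membrane pair Col4a1 and Col4a2. Each sequence covers 250 bases before and 50 bases from the start of the gene, from RefSeq on GRCm38.p6, in the direction of the gene, with matches to a CCAAT box (CCAAT, or ATTGG on the other strand), a GC box (GGGCGG or CCGCCC) and a TATA box (TATAAA or TTTATA) in capitals. Col1a2 lies at chr6:4505368-4505667 (plus strand) and Col3a1 at chr1:45311288-45311587 (plus strand). The promoter of Col1a1 was not used here.
Col1a2: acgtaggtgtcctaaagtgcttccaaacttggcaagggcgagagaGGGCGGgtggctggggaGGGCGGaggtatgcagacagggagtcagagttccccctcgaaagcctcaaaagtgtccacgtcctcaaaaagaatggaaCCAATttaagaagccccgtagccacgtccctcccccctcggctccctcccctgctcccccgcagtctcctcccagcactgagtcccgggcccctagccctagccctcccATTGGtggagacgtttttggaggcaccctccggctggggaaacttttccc
Col3a1: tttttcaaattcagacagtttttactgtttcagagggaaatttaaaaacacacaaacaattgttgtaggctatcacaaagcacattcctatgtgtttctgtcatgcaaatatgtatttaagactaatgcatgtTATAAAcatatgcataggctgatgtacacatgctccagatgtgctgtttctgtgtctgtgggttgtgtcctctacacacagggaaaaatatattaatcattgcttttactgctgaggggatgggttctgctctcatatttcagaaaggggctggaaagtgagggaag
The Col1a2 window holds 2 CCAAT boxes and 2 GC boxes, and the Col3a1 window 1 TATA box. Of all 32851 promoters of this length, 37.4% held a CCAAT box, 35.7% a GC box and 13.6% a TATA box. Promoters were at hand for 35 of the collagen genes, of which 13 held a CCAAT box, 22 a GC box and 5 a TATA box. Of the 7 promoters of genes lower by 2-fold or more in aged cells, 4 held a CCAAT box, 4 a GC box and 1 a TATA box, and of the 16 promoters of measured genes under 2-fold, the counts were 7, 11 and 3. A match describes the letters in the window only.

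Basement membrane collagens divided by chain. Col4a1 and Col4a2 encode the chains that make up the type IV collagen of most basement membranes. Col4a1 had a signal of 263 in young and 101 in aged cells, a level of 0.04 against -0.97, and was 2.01-fold lower (-1.004 ± 0.21). Col4a2 had a signal of 240 in young and 96.2 in aged cells, a level of -0.09 against -1.04, and was 1.93-fold lower (-0.95 ± 0.21). The pair had nearly the same difference, and the 2-fold threshold passed between them. These are also the values nearest to it, Col4a1 just inside and Col4a2 just outside, followed by Col6a1 inside with -1.08. The 2 genes lie head to head on chromosome 8, with RefSeq starts 21 bases apart. The Col4a1 start is at 11312826 on the minus strand and the Col4a2 start at 11312805 on the plus strand, so that their first bases overlap. The windows of the 2 genes share 78 bases, read in opposite directions. The Col4a1 window is at chr8:11312777-11313076 (minus strand) and the Col4a2 window at chr8:11312555-11312854 (plus strand) on GRCm38.p6, with capitals as above.
Col4a1: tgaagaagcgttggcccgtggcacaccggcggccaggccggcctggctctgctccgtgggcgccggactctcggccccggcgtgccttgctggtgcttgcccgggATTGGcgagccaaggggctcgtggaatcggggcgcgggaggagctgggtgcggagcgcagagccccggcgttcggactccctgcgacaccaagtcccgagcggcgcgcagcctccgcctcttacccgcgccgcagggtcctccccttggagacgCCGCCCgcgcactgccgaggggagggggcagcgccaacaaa
Col4a2: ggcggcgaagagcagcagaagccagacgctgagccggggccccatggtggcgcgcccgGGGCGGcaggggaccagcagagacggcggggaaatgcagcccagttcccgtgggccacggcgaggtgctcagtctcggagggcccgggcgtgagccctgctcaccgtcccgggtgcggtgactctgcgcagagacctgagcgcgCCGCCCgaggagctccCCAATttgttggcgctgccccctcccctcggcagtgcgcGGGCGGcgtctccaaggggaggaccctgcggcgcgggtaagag
The Col4a1 window holds 1 CCAAT box and 1 GC box, and the Col4a2 window 1 CCAAT box and 3 GC boxes.

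The other type IV chains occur in the basement membranes of particular tissues. Col4a5 had a level of -2.15 in young and -2.69 in aged cells, a difference of -0.55 ± 0.27. Col4a6, its neighbour on the X chromosome, had levels of -3.28 and -3.33 and a difference of -0.05 ± 0.34, well within its error. Col4a4 was measured on the young array only, at -3.10, and was at least 1.61-fold lower in aged cells. Col18a1, a collagen of basement membranes that releases endostatin, had a signal of 383 in young and 306 in aged cells, with levels of 0.58 and 0.63 and a difference of 0.05 ± 0.20. Col4a3 and Col15a1 were well above background on neither array. The class therefore held a pair at about 2-fold lower and, in Col18a1, a bright member whose difference was far below its error.

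**Figure D3:**
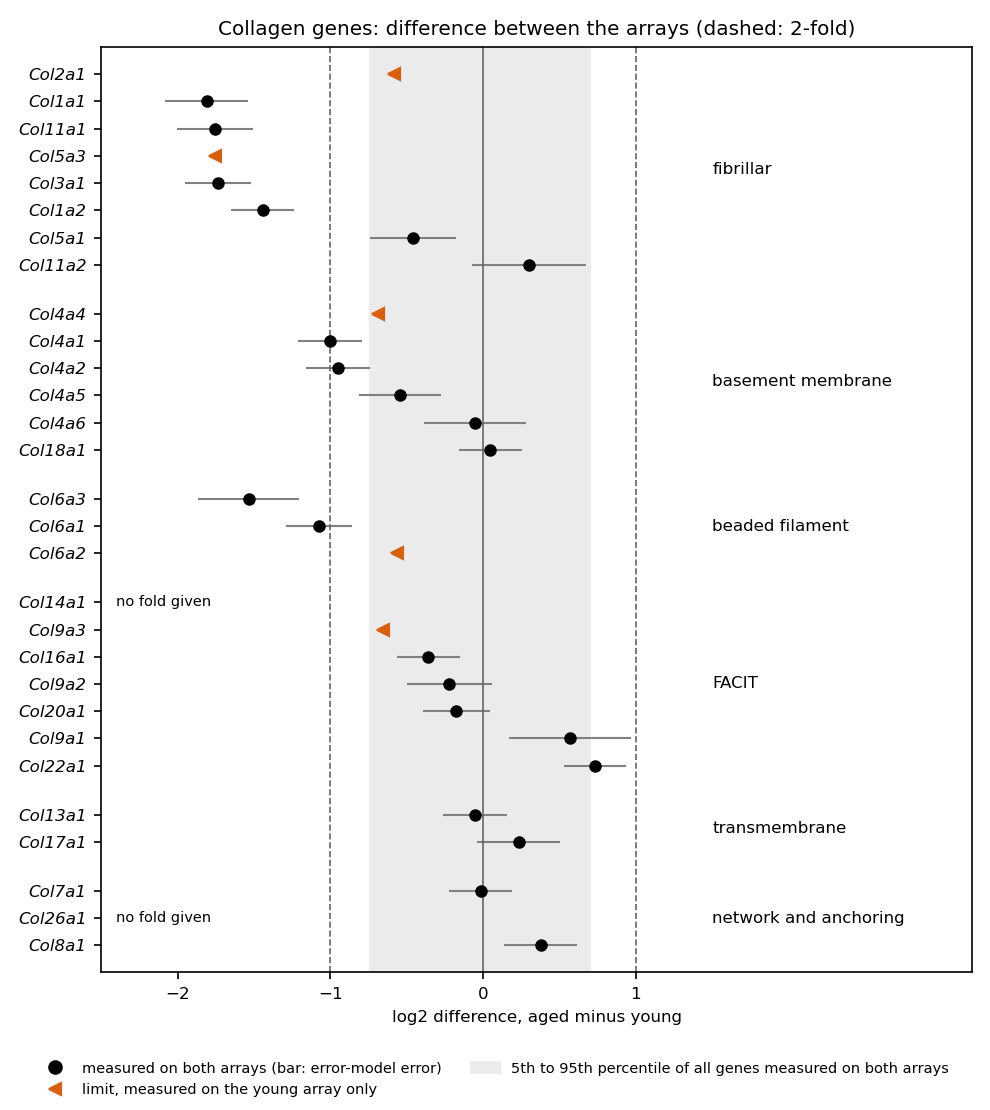
Difference of each of the 29 genes, aged minus young, on the log2 scale. Points were measured on both arrays, with bars for the error of the software's model. Arrows are limits for genes measured on the young array only, and that of Col5a3 equals its difference. The grey band spans the range of all genes without the outer 5% at each end (-0.74 to 0.70) and dashed lines mark 2-fold. The 7 points beyond the left line belong to the fibrillar, basement membrane and beaded filament classes.

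Type VI collagen forms beaded filaments around cells and between basement membrane and the matrix beneath. Its chains are encoded by Col6a1, Col6a2 and Col6a3 in most tissues. Col6a1 had a signal of 166 in young and 60.9 in aged cells, a level of -0.62 against -1.70, and was 2.11-fold lower (-1.08 ± 0.22). Col6a3 had a signal of 68.5 in young and 18.3 in aged cells, a level of -1.90 against -3.44, and was 2.90-fold lower (-1.53 ± 0.33). Col6a2 was measured on the young array only, at -3.23, and was at least 1.48-fold lower. Col6a1 and Col6a3 of the common form were thus lower on the aged array. For Col6a2 only a limit is known, and this fell to -0.06 with normexp. Another Col6a3 probe, measured on the young array only, gave a limit of at least 1.33-fold lower. Col6a4, Col6a5 and Col6a6 were well above background on neither array.

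The FACIT collagens, which lie on the surface of other fibrils, gave no gene at 2-fold in either direction. Col16a1 had a level of 0.38 in young and 0.03 in aged cells (-0.36 ± 0.21). Col22a1, known from tissue junctions, had a signal of 306 in young and 393 in aged cells, a level of 0.26 against 0.99. Its difference of 0.73 ± 0.20 was the highest of all collagen genes measured on both arrays. Type IX collagen coats the fibrils of cartilage, and its chains did not point one way. Col9a1 had levels of -3.93 and -3.36 (0.57 ± 0.40), Col9a2 had levels of -2.39 and -2.61 (-0.22 ± 0.28), and Col9a3 was measured on the young array only, at least 1.57-fold lower. Col20a1 had levels of -1.30 and -1.47, a difference of -0.17 ± 0.22. For Col14a1, whose probe is shown above, the young signal of 17.1 was so close to background that no fold could be given against the aged array. Col12a1 and Col19a1 were well above background on neither array.

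Transmembrane collagens are anchored in the cell membrane. Col13a1 had a level of -0.83 in young and -0.88 in aged cells, a difference of -0.05 ± 0.21, and its second probe gave -0.12. Col17a1, the hemidesmosomal collagen that ties basal epithelial cells to the basement membrane, had levels of -2.86 and -2.63. Its 2 probes disagreed in sign, with 0.23 ± 0.27 for the brighter and -0.53 ± 0.35 for the other, and no direction is given for this gene. Col23a1 and Col25a1 were well above background on neither array.

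Col7a1, whose product forms the anchoring fibrils that fasten a basement membrane to the connective tissue below, had a signal of 5777 in young and 4414 in aged cells. Once each array was set to its 75th percentile, the levels were 4.50 and 4.48, a difference of -0.02 ± 0.20. Col8a1, a network-forming collagen known from blood vessels and the cornea, had a signal of 62.1 in young and 62.3 in aged cells, with levels of -2.04 and -1.67 and a difference of 0.38 ± 0.24. For Col26a1, with a signal of 14.2 on the young array, no fold could be given. Col8a2, Col10a1 and Col28a1 were well above background on neither array.

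The other genes of the pathway were followed from the endoplasmic reticulum to the matrix. Of the genes for the enzymes and chaperones that modify and fold collagen chains, 16 of 19 on the array were measured, none of them at 2-fold in either direction, with a median difference of 0.20. P4ha2 and P4ha3, the catalytic subunits of prolyl 4-hydroxylases, had differences of 0.92 and 0.90. P4hb, their partner, and Ppib, a cyclophilin of the collagen-modifying complex, had 0.65 each, and Fkbp10, a chaperone of procollagen, had -0.65. Among the genes that remove the propeptides or cross-link the fibrils, 7 of 13 were measured, with a median of 0.19 over the 4 measured on both arrays. Tll1, a proteinase that cuts the carboxyl propeptide, was at least 4.81-fold lower, and Lox, the lysyl oxidase that starts cross-linking, was at least 2.14-fold lower, both measured on the young array only. Loxl2, a lysyl oxidase-like enzyme, was higher, with a level of -1.89 in young and -0.73 in aged cells (1.16 ± 0.24). Bmp1, Adamts2 and Pcolce, which also serve propeptide removal, had differences of 0.62, -0.59 and -0.25.

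Of 14 genes for matrix proteins that bind collagen, all were measured and 3 were at least 2-fold lower, with a median of -0.40. Fn1, fibronectin, had a signal of 1259 in young and 224 in aged cells and a difference of -2.12 ± 0.21. Sparc, a collagen-binding glycoprotein, had a signal of 4158 in young and 1510 in aged cells (-1.09 ± 0.20), and Postn, periostin, was at least 2.22-fold lower. The small proteoglycans Dcn and Lum, which coat fibrils, had differences of -0.98 and -0.91, and Nid1, a linker of basement membranes, had -0.85. Of the collagen receptors, 7 of 10 were measured and none was at 2-fold, with a median of -0.01. The epithelial receptor Ddr1 had a difference of 0.02, the integrin chains Itgb1 and Itga1 had -0.04 and -0.45, and Gp6 had 0.37. Of the proteases that degrade collagen, 4 of 6 were measured and none was at 2-fold. Ctsk had a difference of -0.42, and Mmp2 was at least 1.35-fold lower. Mmp14 was not well above background on the aged array, and Mmp9 not on the young array. With the dim signals as they stood, their differences were -0.43 ± 0.46 and 0.50 ± 0.465, each about as large as its error.

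**Figure D4:**
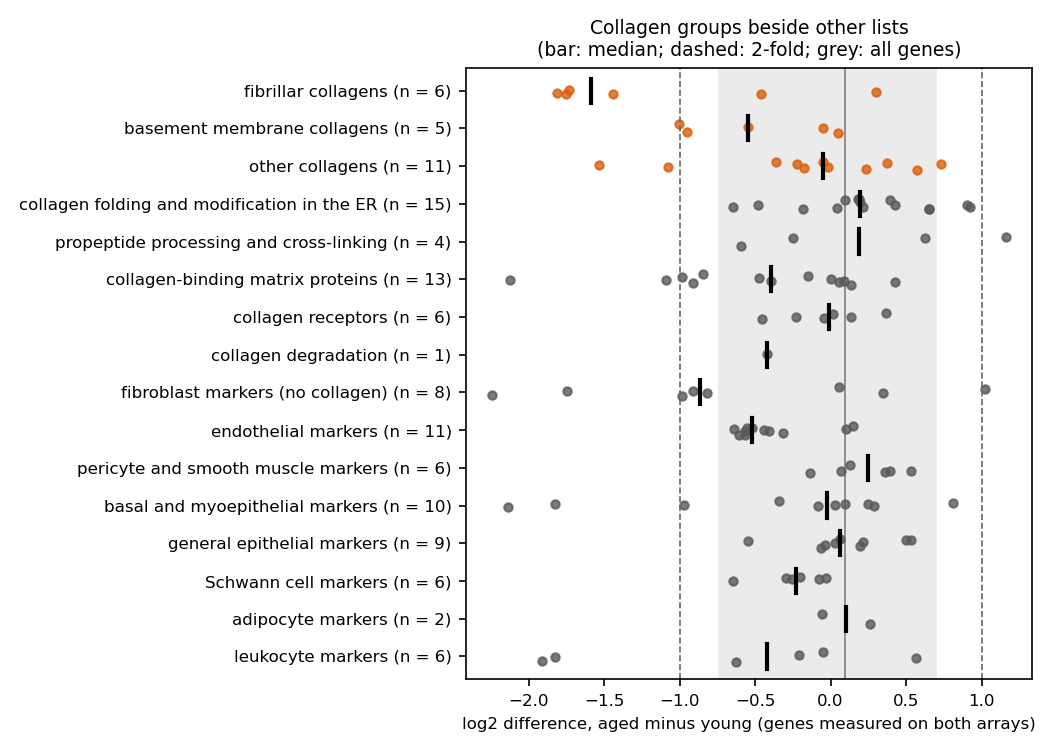
Difference of each gene measured on both arrays, aged minus young on the log2 scale, for the collagen groups (orange) and for pathway and marker lists (grey), with black bars at the medians. The grey band and line give the range without the outer 5% at each end and the median (0.09) of all genes. The medians furthest to the left are those of the fibrillar collagens (-1.59) and the fibroblast markers (-0.87).

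Markers of other cell types that the bead fraction could hold were read beside the collagens. Of the fibroblast markers, from which collagens were left out, 10 of 13 were measured. Of these, 3 were at least 2-fold lower, namely S100a4 (-2.24 ± 0.20), Vim (-1.75 ± 0.20) and Pdgfra. For Pdgfra, the aged signal was not well above background, and taken as it stood it gave -1.29 ± 0.39. Pi16 was the 1 marker at least 2-fold higher (1.02 ± 0.22). S100a4 and Vim are also expressed by leukocytes, and Dcn, Lum and Fbln1 stand in the list of collagen-binding proteins as well. The median was -0.87, and the summed signal of its 8 genes measured on both arrays was 34.8 in young and 13.9 in aged cells, in units of the 75th percentile (as for all sums below). The brightest probes weigh most in such a sum, here those of Dcn, Vim and S100a4. The defining genes did not all point one way, with -0.82 for Fap and 0.34 for Thy1. The part of this list in the lower collagen signals was not tested.

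Of the leukocyte markers, 6 were measured on both arrays, with a median of -0.42. Lyz2 and Cd52 were at least 2-fold lower (-1.91 and -1.83), and none of the 6 was at least 2-fold higher. The markers did not all point one way, with -0.62 for Csf1r, -0.21 for Ptprc, -0.05 for Itgam and 0.56 for Cd3e. The summed signal of the 6 was 191 in young and 106 in aged cells. Lyz2 weighs heavily in this sum, with a signal of 23810 in young and 4884 in aged cells. All 12 endothelial markers were measured and none was at 2-fold, with a median of -0.52, differences of -0.64 for Kdr, -0.57 for Cdh5 and 0.10 for Pecam1, and a summed signal of 14.4 against 10.2. The pericyte and smooth muscle, Schwann cell and adipocyte markers had medians nearer to that of all genes. Of the pericyte and smooth muscle markers, 8 were measured, none at 2-fold, with a median of 0.25 over the 6 on both arrays. Their sum was 55.5 against 60.8, with Mcam the brightest. Of the Schwann cell markers, 7 were measured, none at 2-fold, with a median of -0.23 over 6 and a sum of 23.5 against 21.0. Of the adipocyte markers, 3 of 6 were measured, none at 2-fold. Their median of 0.10 and sum of 4.65 against 5.20 cover only 2 genes. Adipoq and Plin1 were well above background on neither array. Cfd, an adipocyte marker measured on the young array only, was at least 1.84-fold lower. The part of these lists in the collagen result was not tested either.

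The labelled cell type was read from epithelial markers. All 10 general epithelial markers were measured, none at 2-fold, with a median of 0.06 over the 9 measured on both arrays. The summed signal of the 9 was 524 in young and 583 in aged cells, and Krt18 and Krt8 weigh most in it. Differences of the 9 ran from -0.55 for Cldn4 to 0.535 for Krt7. Krt19, measured on the young array only, was at least 1.855-fold lower. Epcam, the target of the beads, had a signal of 1778 in young and 1573 in aged cells and a difference of 0.20. Of the 10 basal and myoepithelial markers, Cnn1 (-2.14) and Myh11 (-1.83), contractile genes that smooth muscle also expresses, were at least 2-fold lower. Mylk followed with -0.97, while Krt17 had 0.81, and Krt5 and Acta2 had differences of 0.03 and -0.08. The median of this list was -0.02 and its summed signal 83.2 in young and 92.3 in aged cells.

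The way in which the arrays were set level bore on the genes near the threshold. Over 7 scalings and background corrections, Col1a1 ranged from -2.06 to -0.78, Col1a2 from -1.70 to -1.16, Col3a1 from -1.99 to -1.17 and Col11a1 from -2.01 to -0.84. Col6a3 ranged from -1.79 to -0.41 and the limit of Col5a3 from -2.01 to -0.49. Col1a1, Col11a1, Col5a3 and Col6a3 were at least 2-fold lower under 6 of the 7, the exception being the normexp background correction. Col6a1 passed under 5, Col4a1 under 4 and Col4a2 under 2 of the 7. All 9 of these genes were below 0 under each of the 7. The limits of Col2a1 (-0.84 to -0.04), Col4a4 (-0.94 to -0.08) and Col6a2 (-0.82 to -0.06) came close to 0 with normexp. So did the difference of Col4a5 (-0.80 to -0.02), and the limit of Col9a3 ranged from -0.91 to 0.00. The sign did not hold for Col7a1 (-0.38 to 0.16), Col18a1 (-0.21 to 0.22), Col4a6 (-0.31 to 0.12), Col13a1 (-0.31 to 0.12), Col17a1 (-0.02 to 0.41), Col5a1 (-0.71 to 0.02) or Col9a2 (-0.47 to 0.07), and Col20a1 ranged from -0.43 to 0.00. Col22a1 (0.48 to 0.91), Col9a1 (0.32 to 0.75), Col8a1 (0.12 to 0.55) and Col11a2 (0.05 to 0.48) were above 0 under each. The median of the ER folding list ranged from -0.06 to 0.37, that of the fibroblast markers from -1.12 to -0.22 and that of the collagen-binding proteins from -0.65 to -0.12.

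**Figure D5:**
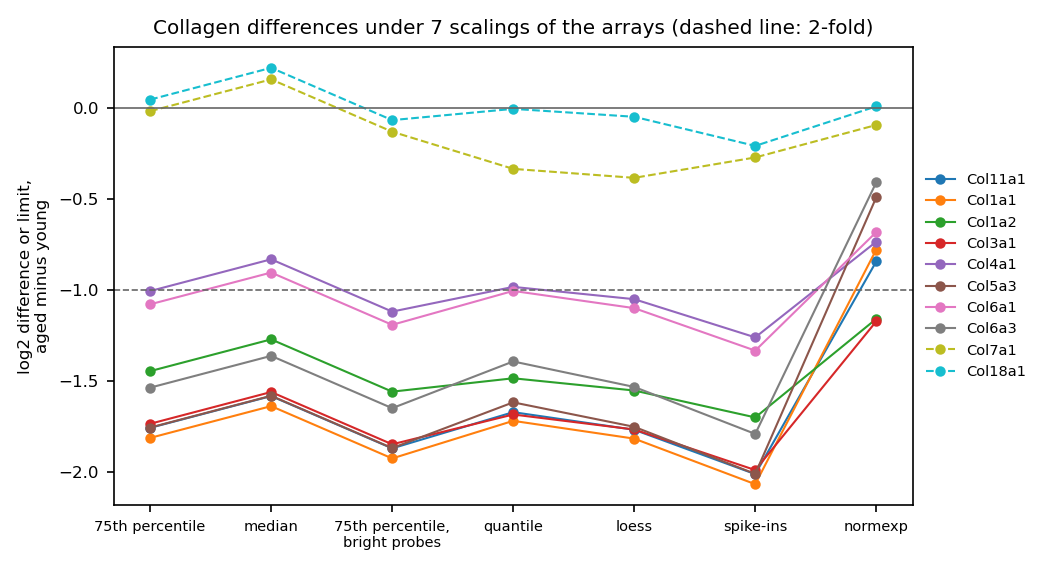
Difference or limit, aged minus young on the log2 scale, of the 8 genes at least 2-fold lower and, dashed, of Col7a1 and Col18a1 under 7 scalings of the arrays. Only Col1a2 and Col3a1 lie below the 2-fold line under all 7, and all 8 of these genes lie nearer to 0 under normexp.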

How the data were processed

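RNA from EpCAM-selected submandibular gland cells of young and aged mice was labelled with Cy3 and hybridized to 1 Agilent 8 × 60K array per age, on the same slide. The deposited files, made with Feature Extraction 12.0.3.1, give the intensity of each spot after background subtraction and correction of trends across the array, with an error for it. The authors' processed table holds the ratio of the same intensities to 1 constant per array and served as an alternative. Here, each log2 intensity was scaled by subtracting the log2 of the 75th percentile over 59305 spots that are not controls. Outlier spots (90 young, 93 aged) were left out, spots of a probe were averaged, and the brightest probe well above background on at least 1 array stood for its gene. No spot was saturated. Well above background were 55.4% of the young and 50.8% of the aged spots, and the small number of arrays limits precision. For a probe measured on 1 array, the dim array was set to its weakest signal well above background (14.1 young, 14.3 aged), or to the probe's own signal if greater, and no fold was given where this limit was under 1-fold. The threshold of 2-fold is that of the study's methods.

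The members, classes and lists were chosen with earlier results of these data known. Every collagen gene was accounted for, and at most 6 genes of any other list were named, those of largest difference first and then defining markers. One marker is not reported here. All 70 collagen probes with a RefSeq transcript matched the same symbol in RefSeq. Probe positions are on mm9, and their place in exons was not looked up. Alternatives, 13 in all, covered scaling, background correction, filters and the choice of probes. R 4.3.3 with limma 3.58.1 and Python 3.11.15 with numpy 2.4.6, pandas 2.3.3 and matplotlib 3.10.9 were used, and the steps were checked on simulated data.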

Additional observations from a re-analysis of the deposited data

How the results depend on the processing

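The count of 8 collagen genes at least 2-fold lower was 6 with centring on the median (4.06% of all genes lower), 9 with the 75th percentile over bright probes (5.98%) or the spike-in controls (7.54%), 7 with quantile normalization (4.65%) or the authors' table (5.1%) and 8 with loess (5.68%), and Col1a2 and Col3a1 passed under every alternative that gave them a value. With normexp, 2 genes were lower, the median of the collagen genes was -0.024, that of the fibrillar genes -0.81 and that of the basement membrane genes -0.018, beside 1.40% of all genes lower. The spike-in controls gave medians of -0.54 for the collagen genes, -0.80 for basement membrane genes and -0.31 for the other classes, and moved the median of all genes by -0.25. Median centring moved it by 0.17, the 75th percentile over bright probes by -0.11, loess by -0.14 and leaving out the filter by 0.14. The median of the fibrillar genes less that of all genes was -1.68 in the report. Scaling by the median, the bright probes or the spike-in controls subtracts 1 number per array and cannot change this value. It was -1.61 with quantile normalization and with loess, and -0.91 with normexp. Of all calls, 33.0% were higher, 48.0% with median centring and 17.9% with the spike-in controls. With no filter on dim probes, all 44 genes had a value, of which 14 were lower and 2 higher, beside 2398 (6.50%) lower and 1680 higher of 36866 genes. With dim values as they stand, 12 of 29 were lower, beside 1684 (7.91%) of all genes. The cause of these shifts was not tested. The median of the other classes was 0.12 with median centring, on the other side of 0, and the other 3 medians of collagen groups stayed below 0 under each alternative. No replicate could be left out, and no paired analysis was possible because each age had 1 array. Signal over background limits the genes near the floor, 15 of which gave no value.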
